A study of Mus musculus with 9 samples.

Results

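The genes described here encode proteins of the smooth muscle contractile apparatus, *Acta2*, *Actg2*, *Tagln*, *Cnn1*, *Myh11* and *Des*. They were chosen by name, with earlier results of these data known, so their levels are a description and carry no test. All of their probes were taken by gene symbol, which gave 12 probes of 6 genes among 46643 probes and 19403 genes with a probe. Gene expression had been read from total RNA by Illumina MouseWG-6 BeadChips, on which beads carry the probes, with 1 array for each of 9 conditions.

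The cells were a mouse embryonic stem cell line from blastocyst, spelled G6B-2 in the sample labels. The conditions were undifferentiated cells (mESCs) at the start of differentiation (day of differentiation, DoD, 0), embryoid bodies (EBs, floating aggregates formed without leukemia inhibitory factor) on DoD 2, and EBs on DoD 8 after vehicle (C), 1 nM (R9), 10 nM (R8) or 100 nM (R7) retinoic acid (RA). The last 3 were neurospheres of DoD 36 that had received C, R8 or R7. By the study's methods, EBs were moved to coated plates on DoD 8 and were later grown in neural medium. Between DoD 8 and DoD 36, day, plate surface and medium therefore cannot be told apart. RA or vehicle, 0.1% ethanol by the labels, was present between DoD 2 and DoD 6, and the series text names another solvent. The labels give day 29 for the last stage and the study's methods DoD 36, the name used here. Per the methods, 6 biological replicates contributed to each mixed RNA, and only its label describes the R9 array. All cultures came from 1 line grown toward neural cells and hold a mixture of cell types. The arrays therefore hold no replicate error, and no test was made. In such bulk RNA, fewer cells of a type and less RNA per cell cannot be told apart.

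Smooth muscle cells contract when myosin filaments pull on actin filaments that are anchored to dense bodies and to a network of intermediate filaments. *Acta2* encodes alpha smooth muscle actin and *Actg2* the gamma smooth muscle actin abundant in gut and bladder wall. *Tagln* encodes transgelin (SM22 alpha) and *Cnn1* calponin, both actin-binding proteins, *Myh11* the smooth muscle myosin heavy chain, and *Des* desmin, the intermediate filament of all muscle types. Many of these genes are driven by serum response factor (*Srf*) with its cofactor myocardin (*Myocd*), through a short element called the CArG box. *Myh11* is held to be the most restricted to smooth muscle, whereas *Acta2* and *Tagln* are also used by early heart muscle and by contractile fibroblasts.

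RefSeq promoter sequences (GRCm38.p6) were found for 3 of the 6 genes, *Acta2*, *Cnn1* and *Des*. The 250 bases before the transcription start are shown for *Acta2*, the gene detected on every array, at chr19:34255374-34255623 on the minus strand, and for *Cnn1*, the gene detected on no array, at chr9:22099003-22099252 on the plus strand. Capitals mark matches to the CArG box with at most 1 mismatch, searched on both strands, which for this palindromic motif are 1 search.
Acta2: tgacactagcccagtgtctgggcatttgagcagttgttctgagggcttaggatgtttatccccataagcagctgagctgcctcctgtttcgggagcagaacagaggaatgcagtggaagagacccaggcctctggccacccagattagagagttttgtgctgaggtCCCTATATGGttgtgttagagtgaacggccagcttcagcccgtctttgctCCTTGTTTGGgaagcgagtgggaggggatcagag
Cnn1: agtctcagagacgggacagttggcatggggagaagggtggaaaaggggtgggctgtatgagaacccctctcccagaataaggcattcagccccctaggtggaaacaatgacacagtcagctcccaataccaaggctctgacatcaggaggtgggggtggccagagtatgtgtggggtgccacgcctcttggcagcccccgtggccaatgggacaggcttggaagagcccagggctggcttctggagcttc
*Acta2* held 2 such matches, each with 1 mismatch, at 84 to 75 and 34 to 25 bases before the start. *Cnn1* and *Des* held none in this window. Of 32851 windows of this length, 18.6% held a match with at most 1 mismatch and 1.47% an exact one. A match is a description of letters and not a measured binding site.

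Signals are in array units recovered from the deposited values, and arrays were brought to a common median, taken over the 16146 probes that every array detected. A probe counted as detected at an unscaled signal of at least 29.1, and 20737 to 23008 probes were detected per array. The 0.99 quantile of background probes, from which that level was set, reached 56.0 with R8 and 76.6 with R7 in neurospheres, against 24.7 to 32.2 on the other arrays. Differences are log2 ratios of scaled signals. Where only 1 of the arrays compared detected a probe, the difference is a bound, and where neither did, none is given. A gene with a bound had a value only through the array that detected it and could differ only in that direction, and its bound moves with the detection level. A 2-fold difference was used as the mark of a call. As a yardstick of error, the robust SD of the log2 difference between the R9 and C arrays of DoD 8 was taken in bins of signal. It was 0.495 for the dimmest probes (30.4 to 53.0), largest at 0.577 in the next bin (53.0 to 74.6), and 0.15 for the brightest (above 3928.4), and any effect of 1 nM RA is included in it. For a gene with several probes, the lead probe is that with the highest mean log2 signal.

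Of the 6 genes, 5 were detected on at least 1 array, and *Acta2* alone on all 9. The lead probe of each of these 5 genes was highest in EBs of DoD 8 after 100 nM RA.

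**Figure D1:**
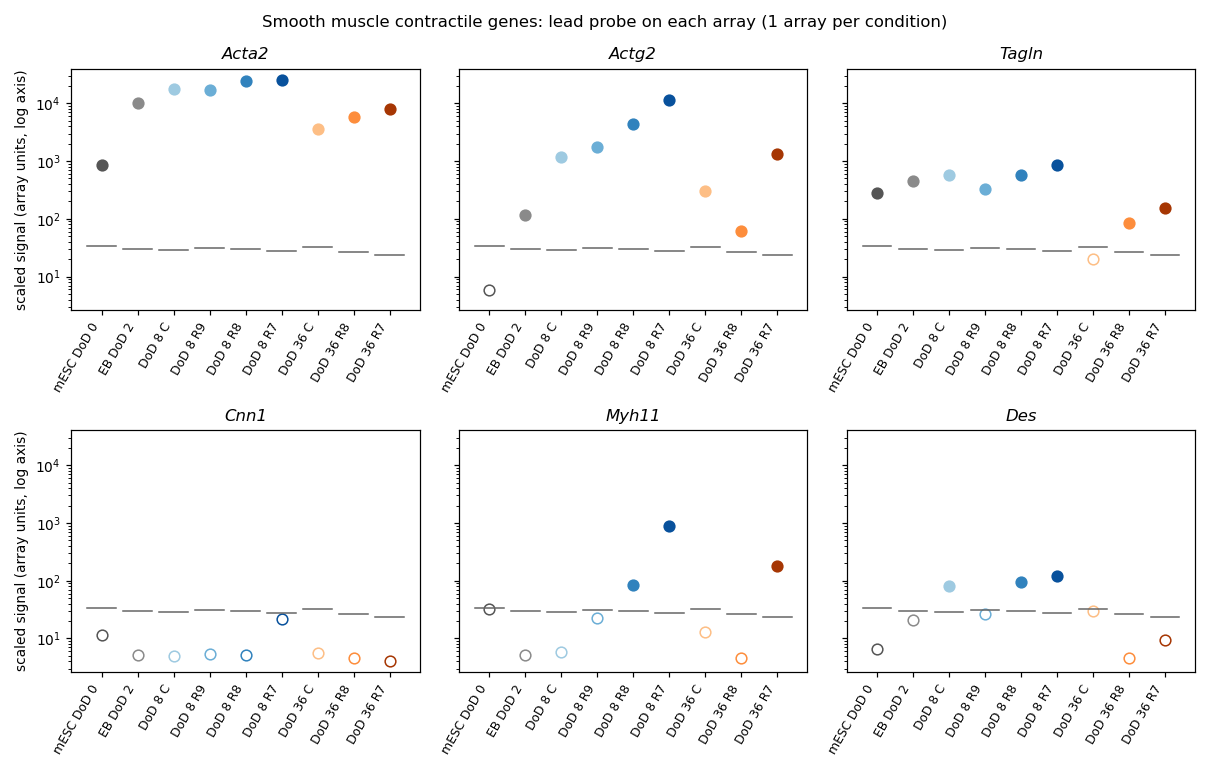
Scaled signal (array units, log axis) of the lead probe of each gene on the 9 arrays, 1 array per condition. Filled points were detected, open points were not, and the short lines give the detection level of each array after scaling. Each of the 5 detected genes peaked on the DoD 8 R7 array, and *Cnn1* lay below detection throughout.

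*Acta2*, the alpha smooth muscle actin gene, was detected by 3 of its 5 probes. Its lead probe (3390619) had a scaled signal of 847.6 in mESCs and 9957.7 in EBs of DoD 2. On DoD 8 it had 17510.0 with C, 17068.3 with R9, 24639.1 with R8 and 25799.6 with R7, and on DoD 36 it had 3608.2 with C, 5715.1 with R8 and 8034.1 with R7. The gene was thus high in all EBs of DoD 8 and lower in all neurospheres, with mESCs lowest. The absolute level of this probe is a lower bound, since 19537 whole-number solutions fitted it, while its differences do not depend on the level.
A second probe (1230082) had 201.0 in mESCs, 1663.8 on DoD 2, 3237.3, 3086.0, 4974.9 and 8901.9 on DoD 8 with C, R9, R8 and R7, then 182.0, 707.8 and 1081.1 in neurospheres with C, R8 and R7. The remaining one (60008) had 69.1 in mESCs, 416.2 on DoD 2, 862.3, 803.0, 1219.2 and 1794.7 on DoD 8, and 105.5, 235.8 and 258.7 on DoD 36, in the same order of doses. These 3 probes placed the arrays in nearly the same order, differing only in which of mESCs and DoD 36 C was lowest. The other two *Acta2* probes (104570411 and 107100497) were detected on no array. Probe sequences were not used here, so whether a probe of one actin gene also binds RNA of another was not tested.

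**Figure D2:**
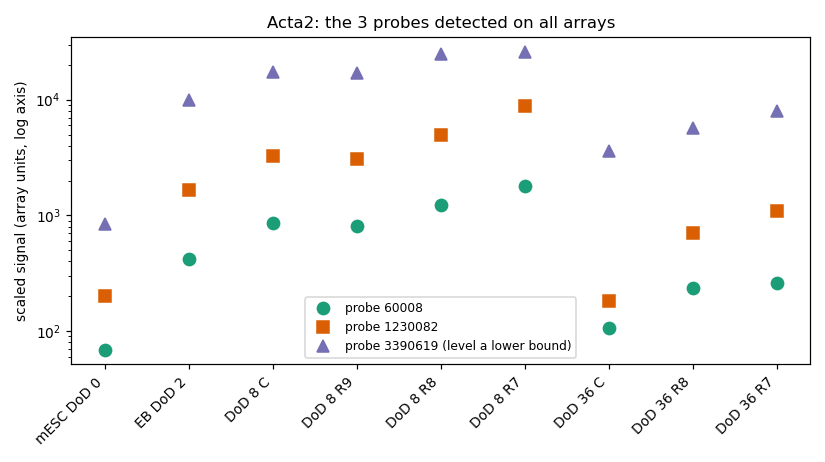
Scaled signal (array units, log axis) of the 3 *Acta2* probes detected on all 9 arrays. On DoD 8 the probes 60008 and 1230082 kept climbing between R8 and R7, by 0.56 and 0.84 log2, whereas the lead probe differed by 0.07.

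*Actg2*, the gamma smooth muscle actin gene, had the widest range. Its probe (4780180) lay at the floor of the scale in mESCs and had 115.6 on DoD 2. On DoD 8 it had 1167.1 with C, 1770.4 with R9, 4398.9 with R8 and 11214.8 with R7, and was thus higher at each higher dose. On DoD 36 it had 302.1 with C, 62.2 with R8 and 1301.5 with R7. R8 was the lowest and R7 the highest of the neurospheres.
*Tagln*, the transgelin gene, was detected on 8 arrays by its lead probe (6660280). It had 282.9 in mESCs, 442.7 on DoD 2, and 579.2, 331.6, 563.5 and 853.8 on DoD 8 with C, R9, R8 and R7. In neurospheres it was not detected with C, and had 83.2 with R8 and 154.8 with R7. Its other probe (101240408) was detected nowhere. *Tagln* was the only one of the genes other than *Acta2* that was detected in mESCs.

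*Myh11*, the myosin heavy chain gene, was detected on 3 arrays by its lead probe (7100273), with 84.8 in R8 and 880.1 in R7 EBs of DoD 8 and 178.7 in R7 neurospheres. It was not detected in any culture without RA or with 1 nM RA, nor in R8 neurospheres. In mESCs its unscaled signal of 28.4 lay just under the detection level. Its other probe (100460746) was detected nowhere.
*Des*, the desmin gene, was dim. Its probe (1450341) was detected only on DoD 8, with 79.6 after C, 96.0 after R8 and 120.5 after R7, and it was not detected after R9.
*Cnn1*, the calponin gene, was detected on no array (probe 510707), and its highest scaled signal was 21.3, in R7 EBs of DoD 8.

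In EBs of DoD 2 against mESCs, the first step of differentiation, both actin genes were higher. *Acta2* was higher by 3.55 log2, or 11.7-fold, and by 2.59 and 3.05 in its other detected probes, while *Actg2* was higher by at least 1.78, a call lost with a detection level of 50 (at least 0.99). *Tagln* differed by 0.65, which is under 2-fold. Of 3 genes with a value, 2 were called higher, and 6.07% of 12570 genes were called so. In the same pair of arrays, 7 of 16 cardiac genes were called higher and 0 lower, with *Actc1*, the cardiac actin gene, at 3.00 and *Myl7*, an atrial myosin light chain, at least at 3.73, as were 2 of 10 skeletal genes, with the skeletal actin gene *Acta1* at 2.86. Their part in the result was not tested.
In C EBs of DoD 8 against EBs of DoD 2, *Actg2* was higher by 3.34, or 10.1-fold, and *Des* by at least 1.40, a call lost with a detection level of 50 (at least 0.65). *Acta2* differed by 0.81 in its lead probe and by 0.96 and 1.05 in the others, and by 1.24 after quantile normalization, so its call depends on the probe and on the scaling. *Tagln* differed by 0.39. Of 4 genes with a value, 2 were called higher, against 6.08% of all genes.

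The next comparisons address how RA during EB formation bears on these genes on DoD 8. At 1 nM RA against C, *Acta2* differed by -0.04, *Actg2* by 0.60 and *Tagln* by -0.80. *Des*, not detected with R9, differed by at most -1.37 and was the 1 gene of 4 called lower, against 1.5% of all genes. With a detection level of 50 it differed by at most -0.60 and the call was lost. Since this array pair also served as the yardstick, these differences have no separate measure of error.
At 10 nM RA against C, *Actg2* was higher by 1.91, or 3.77-fold, where the yardstick SD was 0.18. *Myh11* was higher by at least 1.53, or by at least 0.76 with a detection level of 50, where its call was lost. *Acta2* differed by 0.49, *Des* by 0.27 and *Tagln* by -0.04. Of 5 genes, 2 were called higher, against 3.2% of all genes.
At 100 nM RA against C, *Myh11* was at least 4.91 log2 higher and *Actg2* 3.26 higher, or 9.61-fold. *Acta2* differed by 0.56 in its lead probe, under 2-fold, but by 1.06 and 1.46 in probes 60008 and 1230082, so its call depends on the probe. *Des* differed by 0.60 and *Tagln* by 0.56. Of 5 genes, 2 were called higher, against 5.58% of all genes.
Between the higher doses, R7 against R8, *Myh11* was higher by 3.37 and *Actg2* by 1.35. *Tagln*, *Des* and *Acta2* differed by 0.60, 0.33 and 0.07. These 2 calls of 5 genes stand beside 3.73% of all genes. The doses share the C array, so their differences from C are not independent.

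**Figure D3:**
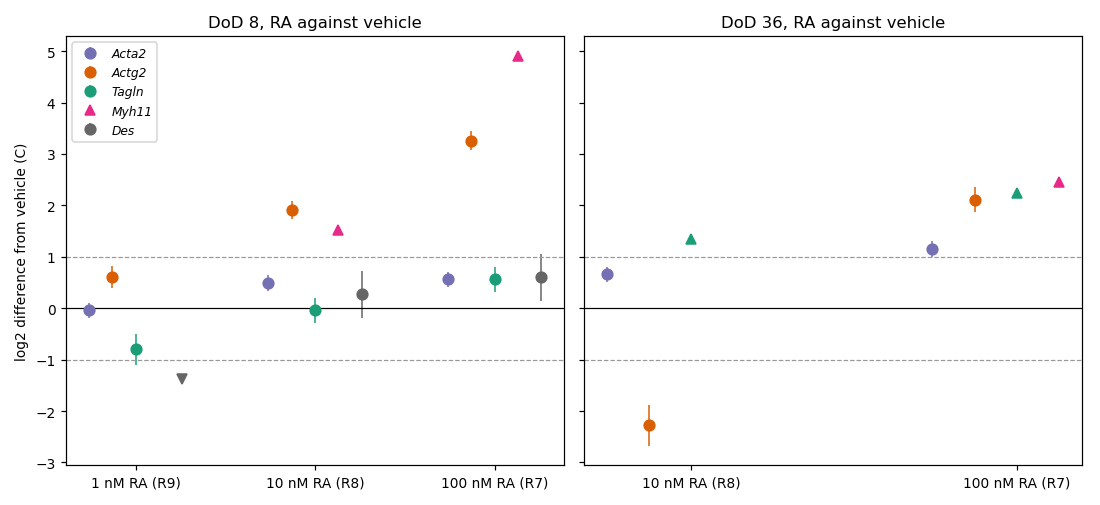
Log2 difference of the lead probe of each gene from the vehicle array of the same day, by dose of RA, on DoD 8 (left) and DoD 36 (right). Bars are the yardstick SD at that signal, taken from DoD 8 arrays for both panels. Upward triangles are lower bounds and downward triangles upper bounds, both without bars, and dashed lines mark 2-fold. *Actg2* was 1.91 above C with R8 on DoD 8 and 2.28 below it on DoD 36.

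In C neurospheres of DoD 36 against C EBs of DoD 8, all 4 genes with a value were lower, where 16.6% of all genes were. *Acta2* differed by -2.28, and by -3.03 and -4.15 in its other probes, *Actg2* by -1.95, *Tagln* by at most -4.14 and *Des* by at most -1.28, a call lost with a detection level of 50 (at most -0.57). *Tagln* and *Des* had a value only through the DoD 8 array. In the same pair of arrays, 5 of 9 skeletal genes were called lower, with a median of -1.11, and 7 of 12 genes of the stress and RNA quality list higher, with a median of 1.56, where 22.7% of all genes were called higher. Of 9 widely expressed control genes with a value, 4 were called lower and 1 higher, with a median of -0.67. *Hprt* (-1.41), *Pgk1* (-1.14) and *Gapdh* (-1.05) were among the lower, and *B2m* (3.32) was the higher. The part of these lists in the result was not tested.
The RA cultures had the same direction. In R8 cultures, DoD 36 against DoD 8, all 5 genes with a value were lower, with *Actg2* at -6.15, *Tagln* at -2.76 and *Acta2* at -2.11, and *Des* and *Myh11* at most -1.86 and -1.68, where 14.7% of all genes were lower. The last 2 had a value only through the DoD 8 array, and with a detection level of 50 the call of *Myh11* was lost (at most -0.89). In R7 cultures all 5 were lower as well, with *Actg2* at -3.11, *Tagln* at -2.46, *Myh11* at -2.30, *Acta2* at -1.68 and *Des* at most -2.34, where 14.5% of all genes were lower. *Des* had a value only through the DoD 8 array here too, and with a detection level of 100 its call was lost (at most -0.53). The skeletal list had 6 of 8 genes lower in R8 cultures and 6 of 10 in R7 cultures, with medians of -2.11 and -2.14, and its part was not tested. Of 10 control genes with a value, 4 were lower and 1 higher in R8 and in R7 cultures. Their medians were -0.44 and -0.35, and their part was not tested.

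Within the neurospheres, 100 nM RA against C gave higher values for all 4 genes with a value, where 12.7% of all genes were called higher. *Actg2* was higher by 2.11, or 4.31-fold, *Myh11* by at least 2.45, *Tagln* by at least 2.24 and *Acta2* by 1.15, with 1.29 and 2.57 in its other probes. *Myh11* and *Tagln* had a value only through the R7 array, and with a detection level of 100 their calls were lost (at least 0.88 and 0.67). With arrays scaled to their 0.75 quantile, *Acta2* differed by 0.94 and was no longer past 2-fold. The unscaled signals of *Tagln* (189.5) and *Myh11* (218.7) with R7 lay above the 0.99 background quantile of 76.6. Of 11 genes of the stress and RNA quality list, 4 were called lower in this pair of arrays, with a median of -0.82, where 12.3% of all genes were called lower, and their part was not tested. *Cnn1* and *Des* were detected on neither array.
At 10 nM RA against C the genes parted. *Actg2* differed by -2.28, where the yardstick SD was 0.393, while *Tagln* was higher by at least 1.35, a call lost with a detection level of 50 (at least 0.65). *Acta2* differed by 0.66 in its lead probe and by 1.16 and 1.96 in the others, and by 1.05 after quantile normalization, so its call depends on the probe and on the scaling. This made 1 gene higher and 1 lower of 3, where 11.2% of all genes were called higher and 8.57% lower. The unscaled *Actg2* signal of 68.4 and the *Tagln* signal of 91.6 with R8 were dim, and both lay above the 0.99 background quantile of 56.0 on that array.
R7 against R8 gave *Actg2* higher by 4.39, or 20.9-fold, and *Myh11* by at least 2.76, and differences of 0.90 for *Tagln*, or 1.05 without scaling, and 0.49 for *Acta2*. These 2 calls of 4 genes stand beside 7.67% of all genes.

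The list of other contractile and cytoskeletal genes of smooth muscle held calls in both directions on DoD 36. Of 29 such genes with a probe, 24 had a value for R7 against C on DoD 8, of which 3 were higher and 0 lower, with a median of 0.06, where 5.58% of all genes were called higher and 3.47% lower. On DoD 36, of 25 with a value, 6 were higher and 5 lower, with a median of -0.40, where 12.7% of all genes were called higher and 12.3% lower.
*Mylk*, the myosin light chain kinase that starts smooth muscle contraction, was among those higher on both days. Its lead probe had scaled signals of 75.9, 209.8, 347.3 and 1550.0 with C, R9, R8 and R7 in EBs of DoD 8, and of 185.0, 492.3 and 4119.9 with C, R8 and R7 in neurospheres. These are differences for R7 against C of 4.35 on DoD 8 and 4.48 on DoD 36, and on both days each higher dose had the higher signal in this probe. Another *Mylk* probe (4010600) had 547.9 with R7 and 66.2 with C on DoD 8, and 792.2 with R7 and 108.0 with C on DoD 36. Unlike the 5 detected genes, *Mylk* was brighter in R7 neurospheres than in R7 EBs.
The integrin subunit *Itga8* was higher by at least 2.45 with R7 on DoD 8, and *Itga7* by at least 2.32 on DoD 36. *Tagln3*, a transgelin relative used by neurons, was higher by 3.09 and 3.69 on DoD 8 and DoD 36. With R7 on DoD 36, the calponin relative *Cnn2* was at -1.46, *Ppp1r12a*, the myosin phosphatase targeting subunit, at -1.39 and *Tagln2* at -1.15.
*Lmod1*, a leiomodin that nucleates actin filaments, was higher by 1.19 in EBs of DoD 2 against mESCs and stood at -2.49 in C neurospheres against C EBs of DoD 8.

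Among receptors and signaling genes of mural cells, the soluble guanylate cyclase subunits, which relax smooth muscle in answer to nitric oxide, were higher with R7. *Gucy1a1* was higher by at least 4.88 on DoD 8 and at least 4.30 on DoD 36, and *Gucy1b1* by 2.36 and 2.25. Another *Gucy1a1* probe (4070037) was dim, with 82.2 and 82.8 with R7 on the 2 days, and was not detected with C. In this list, 4 of 13 genes were higher and 0 lower on DoD 8, where 5.58% of all genes were called higher and 3.47% lower. On DoD 36, 5 of 13 were higher and 1 lower, where 12.7% were called higher and 12.3% lower. The summed signal of those detected among 4 pericyte markers was 1040.4 with R7 and 1089.0 with C on DoD 8, and 904.1 and 618.0 on DoD 36. Of these, *Rgs5* was detected with R7 and not with C on both days, with scaled signals of 51.6 on DoD 8 and 25.1 on DoD 36. Its unscaled signal with R7 on DoD 36 lay under the 0.99 background quantile of 76.6 on that array.
Of the regulators, 7 of 22 were higher and 1 lower with R7 on DoD 8, where 5.58% of all genes were called higher and 3.47% lower. Those higher included *Hic1* (2.86), *Tgfb3* (2.28) and *Gata6* (2.23), and *Klf4*, known to repress the smooth muscle program, was at -1.25. On DoD 36, 6 of 26 were higher and 5 lower, where 12.7% of all genes were called higher and 12.3% lower. The largest increases were those of the ligand *Tgfb2* (3.29), *Meox2* (at least 2.76) and *Hopx* (2.55). Lower were the transcription factor *Gata6* (-1.45), the matricellular *Ccn2* (-1.28), *Mrtfa*, a cofactor of *Srf* (-1.22), *Fhl2* (-1.14) and *Klf4* (-1.08). *Gata6* thus had opposite signs on the 2 days.
*Srf* and *Myocd* were detected on all arrays. On DoD 8, *Srf* had 2474.0 with R7 and 1872.8 with C, a difference of 0.40, and *Myocd* had 136.1 with R7 and 67.7 with C, a difference of 1.01. A second *Myocd* probe had 32.3 with R7 and 49.1 with C, so its probes went opposite ways. On DoD 36, *Srf* differed by -0.46 and *Myocd* by -0.75 for R7 against C. *Mrtfb* was detected on neither array of the R7 comparison of DoD 8 and differed by -0.36 on DoD 36. The unscaled signals of *Myocd* (67.1) and *Mrtfb* (33.0) with R7 on DoD 36 lay under the 0.99 background quantile of 76.6 on that array.

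Markers of some other cell types differed with RA as well. Of 15 fibroblast and mesenchyme genes with a value, 10 were higher with R7 on DoD 8 (median 1.31), where 5.58% of all genes were. On DoD 36 15 of 17 were higher (median 2.34), where 12.7% of all genes were. The summed signal of those detected among 8 defining markers of these cells was 8239.6 with R7 and 1635.5 with C on DoD 8, with *Postn* undetected in both, and 41032.0 with R7 and 13899.0 with C on DoD 36.
Of 17 cardiac genes with a value, 8 were higher with R7 on DoD 8 (median 0.64), where 5.58% of all genes were. On DoD 36, by contrast, 9 of 14 were lower (median -1.13), where 12.3% of all genes were. The summed signal of those detected among 10 cardiac markers was 4582.5 with R7 and 2181.2 with C on DoD 8, with *Myh6* undetected in both, and 2745.6 with R7, 18053.7 with R8 and 7710.7 with C on DoD 36. All 10 cardiac markers passed the detection level with R8 on DoD 36, but *Myh6* was dim there, with a scaled signal of 34.3. Its unscaled signal lay under the background quantile of 56.0 on that array.
Of 10 smooth muscle markers with a probe, 9 were detected with R7 and 8 with C on DoD 8, and 8 with R7 and 6 with C on DoD 36. These markers include the 6 genes described here. Only *Myh11* on DoD 8, and *Myh11* and *Tagln* on DoD 36, made the difference, so the counts restate the values given above. The skeletal list held 0 genes called higher with R7 on either day, where 5.58% of all genes were on DoD 8 and 12.7% on DoD 36. On DoD 36 3 of 9 were lower (median -0.52), with *Acta1* at -2.72, where 12.3% of all genes were lower. *Myod1* was detected on no array. The summed signal of those detected among 5 astrocyte and neuron markers was 32184.4 with R7 and 1237.8 with C on DoD 36. It was mostly *Gfap* (25507.8 with R7 and 168.8 with C) and *Slc1a3* (5314.3 with R7 and 429.8 with C), which mark astrocytes, whereas its neuron genes *Dcx* and *Tubb3* differed by -1.19 and -0.30, and *Snap25*, a neuron gene outside the sum, by -1.45. On DoD 8 the sum was 1723.6 with R7 and 719.7 with C. There *Dcx*, *Snap25* and *Tubb3* differed by 4.24, 2.88 and 0.11. Of 8 astrocyte and neural genes with a value on DoD 8, 3 were higher and 1 lower, where 5.58% and 3.47% of all genes were. For R7 against C on DoD 8, the endothelium list had 0 of 10 genes higher and 0 lower (median -0.03). The myoepithelium and epithelium list had 1 of 8 higher and 0 lower (median -0.39), where 5.58% of all genes were higher and 3.47% lower. On DoD 36, 2 of 9 and 3 of 8 were higher, and 1 and 2 lower (medians -0.40 and -0.59). Of all genes, 12.7% were called higher and 12.3% lower in that pair of arrays. Summed signals of detected markers with R7 and C on DoD 8 were 1401.7 and 2277.4 for endothelium, and 18953.5 and 27990.9 for epithelium. The part of these cell types in the values of the 6 genes was not tested.

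**Figure D4:**
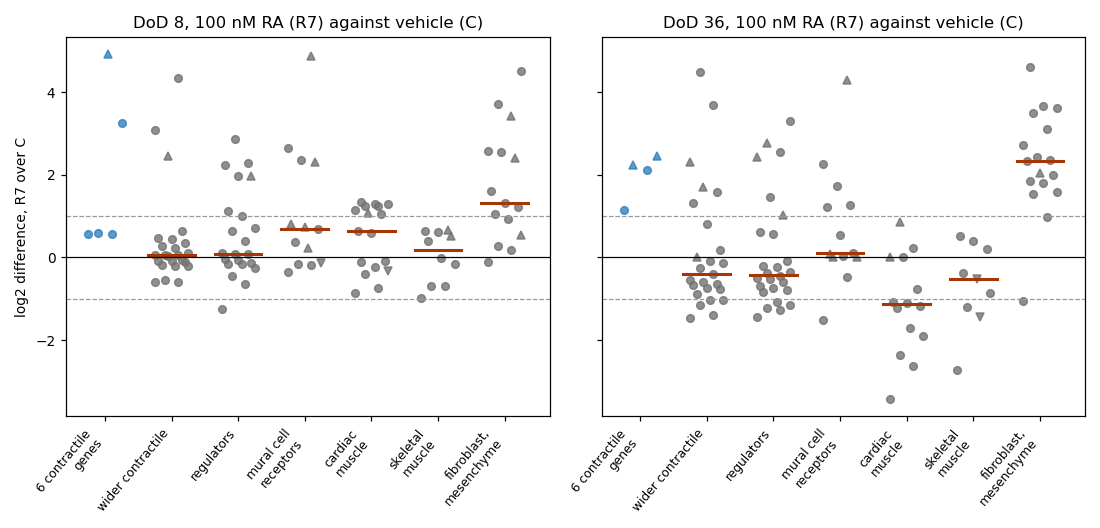
Log2 difference of R7 over C on DoD 8 (left) and DoD 36 (right) for the lead probe of each gene with a value, by gene list. Circles are values, triangles bounds (upward, at least, and downward, at most; bounds that cross 0 are drawn at 0), the thick line is the list's median with bounds taken at their bound (none is drawn for the contractile genes described here), and dashed lines mark 2-fold. The contractile genes with a value were 5 on DoD 8 and 4 on DoD 36, and the cardiac list had medians of 0.64 and -1.13.

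Over the 9 arrays, the genes followed each other to different degrees. As a description over arrays that include the same stages and doses, Pearson's r of log2 signals was 0.84 between *Acta2* and *Actg2*, 0.74 between *Actg2* and *Des*, and 0.40 between *Tagln* and *Myh11*, with scaled signals under the detection level of 29.1 taken at that level. Without this floor it was 0.90, 0.78 and 0.35. Between pairs of the 3 *Acta2* probes it was 0.929 to 0.989.
Of 13082 genes ranked by r with the mean profile of the 6 genes under the same floor, *Crispld2* (0.961), *Tgfbi* (0.934), *Cpm* (0.929), *Tnnt3* (0.916), *Ffar4* (0.912), *Lsp1* (0.908), *Tmem9* (0.908) and *Zdhhc2* (0.906) came first. *Tgfbi*, a matrix protein induced by TGF beta, had scaled signals of 246.3 in mESCs, 617.5 on DoD 2, 2423.5 with C and 5449.4 with R7 on DoD 8, and 138.8 with C and 748.1 with R7 on DoD 36. Without the floor 5 of the 8 stayed among the first 8, and *Cpm* came first (0.924). None of the 8 genes was among the first 8 by Spearman's rho, so the order of likeness rests on the measure.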

How the data were processed

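Total RNA was hybridized to Illumina MouseWG-6 v1.0 BeadChips, 1 array per condition. Values deposited by the authors are log2 signals, median-centered with GeneSpring GX10.02 software, and each holds a signal less a constant of its array and a baseline of its probe. A second deposited table has 9 columns whose names match no sample label, and none of them was used. Signals were recovered as whole numbers of steps of 0.1 above a floor of 5.0 (the step is an assumption that sets the unit only). The level stayed approximate for 2.45% of probes. Arrays were scaled to the mean of their medians over the probes detected on all arrays. The background for calls was counted over lead probes of genes, where all probes had been planned. The recovery and the calls were run on simulated data with known changes, and no outcome of that run is given here. It is no measure of error for the calls on these arrays. The yardstick SD was 0.15 only for the brightest probes and reached 0.577 among dim ones.

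Probes were named by the annotation of the platform, with symbols brought up to date by RefSeq identifiers (32794 probes with 1 symbol, 55 with several and left unnamed, 13794 with none). The members and the gene lists were chosen with earlier results of these data known. Genes named are the 6 members, genes from the 3 largest increases and decreases past 2-fold of each list in 5 main comparisons, the 8 genes most like the members, *Srf*, *Myocd*, *Mrtfa* and *Mrtfb*, and cell type markers that were not detected on some or all arrays. Not every gene among those largest increases and decreases is named. Some named genes are also given in comparisons where they were outside the 3 largest. Astrocyte and neuron genes were named after their values were seen. For correlations and likeness, scaled signals under 29.1 were taken at 29.1, a floor that had not been planned. Alternatives covered scaling, detection level, choice of probe and measure of likeness. Python 3.11.15, numpy 2.4.6, pandas 2.3.3 and matplotlib 3.10.9 were used. With 1 array per condition, the number of arrays limits the precision and no test was made.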

Additional observations from a re-analysis of the deposited data

Results flagged for a closer look

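*Actg2* with 10 nM RA stood out because its difference from the vehicle array had opposite signs on the 2 days. It was 1.91 log2 above C in EBs of DoD 8 (scaled signals of 4398.9 with R8 and 1167.1 with C) and at -2.28 in neurospheres of DoD 36 (62.2 with R8 and 302.1 with C). Each difference rests on 1 array per condition, and the difference between the days was not tested.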

How the results depend on the processing

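No paired analysis was possible because each condition has 1 array and the labels give no replicate numbers. No direction of a gene of the 6 reversed with another scaling. The median of the skeletal list for C on DoD 36 against DoD 8 turned to 0.28, against -1.11, where deposited values were used as they stand and undetected signals stayed in.

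With a signal of 50 or 100, 1 of the 6 genes was called higher on DoD 2 against mESCs and 1 with C on DoD 8 against DoD 2, in place of 2 each, and with R8 and R9 on DoD 8 1 higher in place of 2 and 0 lower in place of 1, and with a signal of 100, 2 were higher with R7 on DoD 36 in place of 4. With the 0.95 background quantile 1 gene, and in the deposited values 2, were lower on DoD 2 against mESCs. For R7 against C on DoD 36, 1 was lower in both settings, and in the deposited values 1 was higher with C on DoD 36 against DoD 8. In the deposited values, 10.1%, 9.96% and 9.63% of genes were higher on DoD 2 against mESCs, with C on DoD 8 against DoD 2 and with R7 on DoD 8, and 9.08%, 9.13%, 7.56% and, for R7 on DoD 36, 20.3% were lower. With the 0.95 quantile, 7.96%, 7.66% and 6.03% were lower in the first 3 of these, and with a signal of 100, 2.58%, 2.68%, 1.65% and 6.43% in all 4. Without scaling, 3.07% were lower on DoD 2, and with R7 on DoD 36 19.5% were higher and 3.47% lower, while the 0.75 quantile gave 21.2% lower. For the likeness, 0 of the 8 genes were kept with Spearman's rho and 5 with no floor at the detection level, an alternative added after seeing the data. The cause was not tested.

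Scaling moved the split of all calls. For R7 against C on DoD 36, 50.8% of calls were higher, with 33.2% under the 0.75 quantile and 84.9% without scaling, and the median of all genes was -0.28, -0.50 and 0.16. For R8 against C it was 56.6%, 35.3% and 80.7%, and 38.6% by the median of all probes, with medians of all genes of -0.15, -0.40, 0.14 and -0.36. Without scaling it was 72.8% in place of 56.1% for DoD 2 against mESCs, 75.3% in place of 58.1% for R7 against R8 on DoD 8, 65.0% in place of 51.5% on DoD 36, and 66.9% and 65.9% in place of 54.8% and 55.3% for R7 and R8 cultures between the days. For R9 it was 43.2% (median of all probes) or 47.1% (no scaling), in place of 59.2%. *Acta2* with R7 on DoD 36 was 0.94 under the 0.75 quantile, and with R7 on DoD 8 1.03 by the mean of its probes.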
